A study of Mus musculus with 6 samples.

Results

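The 10 genes described here encode the parts of the MHC class I pathway that bind and load peptides, together with its transcriptional regulator. They were taken by name from a count table of 43432 mouse gene IDs: the heavy chain genes H2-K1, H2-D1, H2-Q4, H2-Q7 and H2-T23, the light chain gene B2m, the peptide transporter genes Tap1 and Tap2, the tapasin gene Tapbp and the regulator gene Nlrc5. Each symbol matched a single gene ID. RNA was sequenced from epithelial cells of the thymic medulla (mTEC), taken from C57BL/6 mice 4 weeks after birth, with 3 libraries from CopaE241K/+ mice (MUT) and 3 from Copa+/+ mice (WT). Copa encodes a subunit of the COPI coat, which returns vesicles from the Golgi to the endoplasmic reticulum, and MUT mice carry 1 altered and 1 normal copy of it. The series title places the comparison in the setting of STING and type I interferon in the thymus. The labels do not say whether a library came from 1 animal or a pool, so a p-value measures only the spread between these libraries, which may in part be technical.

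Classical class I molecules, such as those of H2-K1 and H2-D1, are a polymorphic heavy chain held together with beta-2-microglobulin and a short peptide, mostly cut from cytosolic proteins. The TAP1-TAP2 transporter carries peptides into the endoplasmic reticulum, where tapasin bridges the transporter to empty heavy chains until a peptide has bound, and loaded molecules then leave through the Golgi. In the thymic medulla, mTEC display self peptides on class I to developing CD8 T cells, including peptides of tissue-restricted antigens. The heavy chain, light chain and transporter genes are classical targets of interferons, and NLRC5 acts on class I promoters through factors bound to a set of elements called S, X and Y.

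The promoters of these genes are shown because promoters of this pathway are known to share regulatory elements, and the data below set the genes' levels side by side. The RefSeq promoter table (GRCm38.p6, 250 bases before to 50 bases after the start site) held an entry for 8 of the 10 genes, and Tap2 and Nlrc5 had none. H2-K1 had 2 entries, and only the first was used. A search of both strands, in which matches may overlap, covered 5 patterns: GAAA and GAAA parted by any 2 bases (interferon-type, 10 letters), GAA and GAAA parted by any 2 bases (interferon-type, 9 letters), GGGGA followed at once by TTCCC (kappaB-type), TGACG (X2-type) and CCAAT (Y-type). Capitals mark the matches, and each stretch runs from 3 bases before the first match to 3 bases after the last one that begins no more than 10 bases past the start site; H2-Q4 and B2m each hold 1 more X2-type match, on the other strand, beyond it. The Tapbp stretch begins at the edge of the window.
H2-K1, chr17:34000332-34000461, minus strand: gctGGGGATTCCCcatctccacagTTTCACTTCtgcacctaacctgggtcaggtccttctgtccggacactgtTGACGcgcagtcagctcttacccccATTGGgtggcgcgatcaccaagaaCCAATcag
H2-D1, chr17:35262920-35263048, plus strand: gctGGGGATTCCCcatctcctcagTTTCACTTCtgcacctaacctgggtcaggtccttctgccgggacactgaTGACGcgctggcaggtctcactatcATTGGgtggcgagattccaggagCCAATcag
H2-Q4, chr17:35379461-35379569, plus strand: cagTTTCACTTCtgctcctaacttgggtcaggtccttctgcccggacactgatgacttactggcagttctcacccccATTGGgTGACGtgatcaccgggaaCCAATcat
H2-Q7, chr17:35439019-35439146, plus strand: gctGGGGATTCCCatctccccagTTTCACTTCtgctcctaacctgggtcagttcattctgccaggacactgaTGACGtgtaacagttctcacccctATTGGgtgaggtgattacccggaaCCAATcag
H2-T23, chr17:36032746-36032828, minus strand: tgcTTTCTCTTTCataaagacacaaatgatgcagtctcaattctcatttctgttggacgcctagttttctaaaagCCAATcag
B2m, chr2:122147545-122147641, plus strand: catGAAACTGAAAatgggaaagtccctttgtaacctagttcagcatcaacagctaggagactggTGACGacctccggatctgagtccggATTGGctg
Tap1, chr17:34187331-34187477, plus strand: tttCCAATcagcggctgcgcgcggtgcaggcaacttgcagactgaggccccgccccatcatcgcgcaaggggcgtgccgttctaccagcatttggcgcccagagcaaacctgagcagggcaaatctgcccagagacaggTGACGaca
Tapbp, chr17:33919228-33919320, plus strand: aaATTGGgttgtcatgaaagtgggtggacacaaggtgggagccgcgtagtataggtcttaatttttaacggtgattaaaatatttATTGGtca

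An interferon-type pattern was found in 6 of the 8 promoters, against 10.4% of the 32851 promoters in the table. H2-K1, H2-D1, H2-Q4 and H2-Q7 held the 9-letter form (7.52% of all promoters), and H2-T23 and B2m the 10-letter form (3.44%). The kappaB-type letters were present in H2-K1, H2-D1 and H2-Q7, against 0.107% of all promoters, and the X2-type letters in 6 of the 8, against 20.8%. CCAAT was present in all 8, against 37.4%. An interferon-type, an X2-type and a Y-type match stood together in 5 promoters (H2-K1, H2-D1, H2-Q4, H2-Q7 and B2m), against 0.658% of all. The 4 heavy chain promoters with this combination come from genes of 1 family, so they are not independent examples. The Tap1 window held TGACG and CCAAT, and the Tapbp window held CCAAT alone. Matches describe letters in a 300-base window and are not measured binding. The patterns stand for types of element already known in promoters of this pathway, so their presence in these genes is no independent result. The percentages give how common the letters are over all promoters and are no test of enrichment.

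Libraries held 21218363 to 23366238 counts in MUT and 19934513 to 22880945 in WT, and 19329 to 24774 and 17174 to 21755 genes with at least 1 count. Mitochondrially encoded genes took 9.14% to 21.3% of counts in MUT and 11.1% to 18.9% in WT. Of 14 mTEC markers, Ccl21a had 0 to 4 counts in every library, and the others were measured in all of them, with the antigen regulator gene Aire at 929 to 1563 CPM in MUT and 954 to 1379 CPM in WT. CPM here uses library sizes summed over the tested genes and scaled by TMM. Of the 13 mTEC markers tested, the fitted value was above 0 for 6, against 49.4% of all genes. The highest were Cd80 at 0.55, Cd40 at 0.29 and Krt14 at 0.22 on the log2 scale. The lowest were Cldn4 at -0.64, Krt5 at -0.54 and Epcam at -0.48. Among the 13, 1 was lower in MUT without overlap between genotypes, against 3.96% of all genes. That marker, the epithelial surface gene Epcam, lay at 418, 441 and 593 CPM in MUT libraries 1, 2 and 3, below its 629, 641 and 751 CPM in WT (log2 fold change -0.48, unadjusted p of 0.12 in edgeR's fit across all genes). Summed markers of dendritic cells and macrophages ran from 660.5 to 1804 CPM in MUT and 814 to 1598 CPM in WT, and those of thymocytes from 123 to 1069 CPM and 222 to 662 CPM. Replicate 2 held the highest sum of both lists in each genotype. Among these markers, Ptcra had no counts in MUT library 1 or WT library 1, Rag2 none in MUT library 3 or WT libraries 1 and 3, Siglech none in MUT library 1 and Clec9a none in WT library 1. Copa measured 347.6 ± 43.6 CPM in MUT and 399.7 ± 151 CPM in WT (SD, n = 3 each), which does not check the genotype, since the allele changes 1 amino acid.

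No class I gene passed edgeR's quasi-likelihood test with Benjamini-Hochberg adjustment over 17172 genes at 0.05, where 0% of all genes passed. Each of the 10 genes had an adjusted p of 0.999875. At an unadjusted p under 0.05 there were also 0 of the 10, against 1.62% of all genes higher and 1.85% lower in MUT, and DESeq2 and limma-voom called 0 of them, against 116 and 0 of all genes. The fitted value was above 0 for 9 of the 10, against 49.4% of all genes, and the median log2 fold change was 0.26, against -0.01 over all genes tested. The 2 genotypes did not overlap for 1 gene, H2-Q7, which was higher in MUT, against 5.39% of all genes higher without overlap. Counted after the values were seen, H2-D1, H2-Q7 and Nlrc5 (3 of 10) were higher in MUT in each of the 3 pairs of libraries with the same replicate number, against 14.2% of all genes, and 0 of 10 were lower in each, against 11.3%. Those pairs share the ending of a source name, which the labels leave unexplained. All 10 genes passed the filter on low counts in 3 MUT and 3 WT libraries, so none entered through 1 genotype alone. In RNA from a cell population, a change in the share of cells and a change in RNA per cell cannot be told apart.

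**Figure D1:**
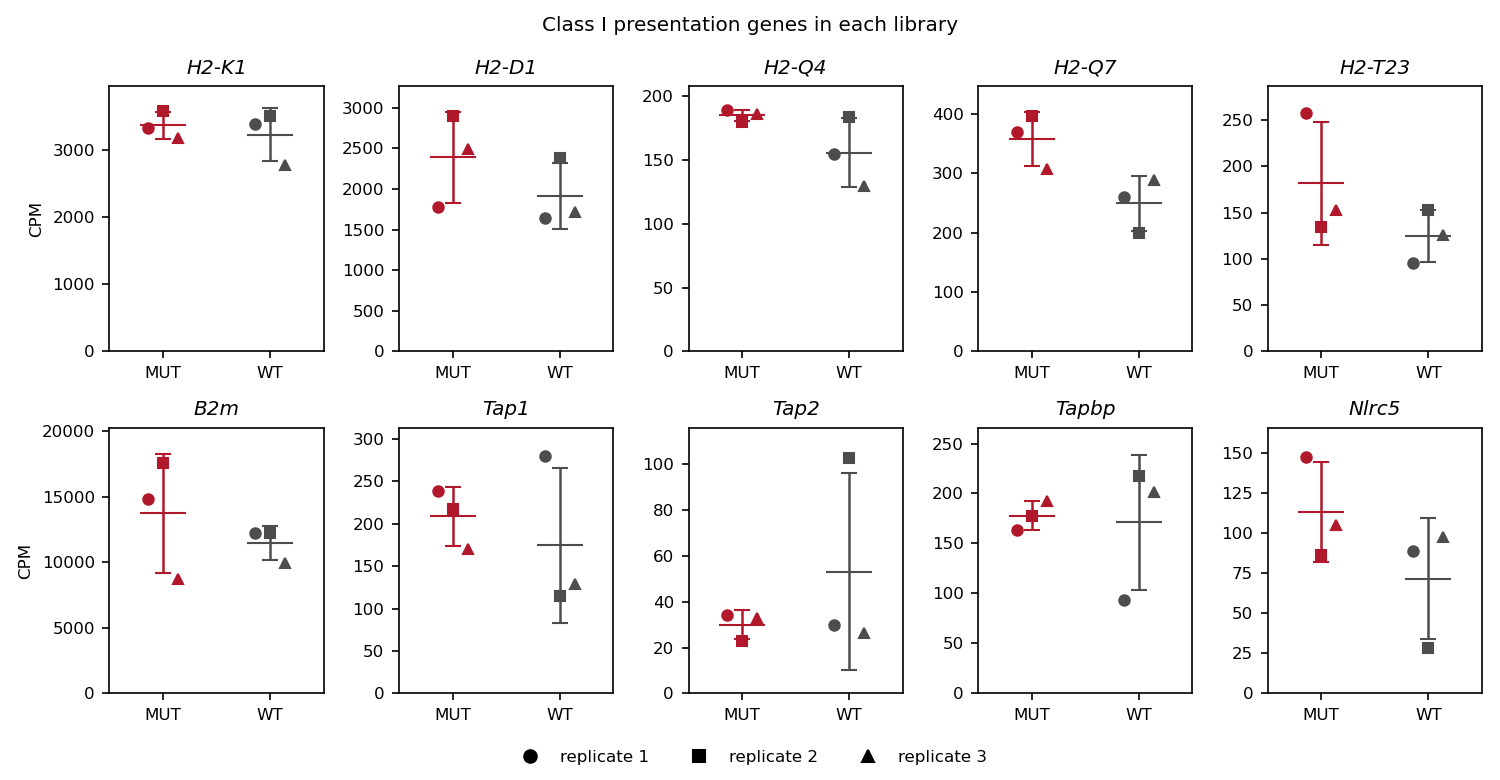
Level of each class I gene in CPM (linear axes from 0) in the MUT libraries, left in each panel, and the WT libraries, right. Marker shapes give the replicate number, horizontal lines the mean and bars the SD of 3 libraries. H2-Q7 is the 1 panel in which all MUT points, from 307 CPM, lie above all WT points, up to 289 CPM.

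H2-K1 and H2-D1 are the classical heavy chain genes, whose products present peptides to CD8 T cells. H2-K1 (ENSMUSG00000061232, chromosome 17, 33996017 to 34000347) had 3337, 3588 and 3187 CPM in MUT libraries 1, 2 and 3, against 3388, 3517 and 2778 CPM in WT libraries 1, 2 and 3. The genotypes overlapped almost completely, and WT library 3 alone stood lower. The log2 fold change was 0.06 (SE 0.24, 95% interval -0.47 to 0.59), which leaves room for a fold from 0.722 to 1.51, and it was -0.04 without WT replicate 3. Of the 10 genes, H2-K1 had the narrowest interval. H2-D1 (ENSMUSG00000073411, 35262730 to 35267499) had 1782, 2892 and 2496 CPM in MUT, against 1643, 2386 and 1717 CPM in WT. MUT library 1 lay among the WT values and MUT libraries 2 and 3 above them. H2-D1 had a log2 fold change of 0.32 (SE 0.28, -0.30 to 0.94), and 0.15 without MUT replicate 2. Within a library, the level of H2-D1 per kilobase was 0.608, 0.918 and 0.892 times that of H2-K1 in MUT libraries 1, 2 and 3 and 0.552, 0.773 and 0.704 times in WT. Replicate 1 had the lowest ratio in both genotypes, and the genotypes overlapped.

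H2-Q7, which encodes a nonclassical heavy chain of the Qa-2 group, showed the clearest separation. It had 368.5, 397 and 307 CPM in MUT, against 259.8, 199 and 289 CPM in WT (ENSMUSG00000060550, 35439155 to 35443773). Every MUT library was higher than every WT library, although MUT library 3 and WT library 3 lay close together. The mean was 357.4 ± 46.0 CPM in MUT and 249.0 ± 45.9 CPM in WT (SD, n = 3 each), a log2 fold change of 0.52 (SE 0.31, -0.15 to 1.19), and it stayed between 0.37 and 0.64 when any 1 library was left out. Its unadjusted p in edgeR's fit across all genes was 0.12. H2-Q6, a heavy chain gene that shares sequence with H2-Q7, overlapped between genotypes. It had 792, 935 and 618 CPM in MUT, against 855, 658 and 585 CPM in WT, and its log2 fold change was 0.16 (SE 0.29). H2-Q4, another Q-region heavy chain gene (ENSMUSG00000035929, 35379617 to 35385290), had 189, 180.1 and 186 CPM in MUT, against 154, 184 and 129 CPM in WT. The coefficient of variation was 2.47% in MUT and 17.5% in WT, and WT library 2 lay inside the MUT range. Its fitted log2 fold change was 0.25 (SE 0.33, -0.48 to 0.97), and 0.13 without WT replicate 3. H2-T23, which encodes Qa-1, the ligand of NKG2 receptors (ENSMUSG00000067212, 36029773 to 36032855), had 257.5, 134 and 153 CPM in MUT, against 95.7, 153 and 126 CPM in WT. MUT library 1 stood apart, and the other MUT libraries lay within or just above the WT range. The log2 fold change was 0.54 (SE 0.39, -0.30 to 1.39) with all libraries and 0.20 without MUT replicate 1.

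B2m, the light chain gene and the most abundant of the 10, varied more between MUT libraries than between genotypes. It lies apart from the heavy chains (ENSMUSG00000060802, chromosome 2, 122147686 to 122153083) and had 14857, 17627 and 8754 CPM in MUT, against 12248, 12216 and 9993 CPM in WT. MUT held both the highest library (2) and the lowest (3), a 2.01-fold range, against 1.23-fold in WT. The mean was 13746 ± 4539.7 CPM in MUT and 11486 ± 1293 CPM in WT (SD, n = 3 each). The log2 fold change was 0.26 (SE 0.29, -0.37 to 0.89), and it was 0.03 without MUT replicate 2 and 0.50 without MUT replicate 3. B2m alone took 1.48%, 1.61% and 1.04% of all counts in MUT libraries 1, 2 and 3 and 1.05%, 1.13% and 1.14% in WT. The 10 genes together took 2.14%, 2.31% and 1.85% of counts in MUT and 1.56%, 1.77% and 1.77% in WT, with every MUT library above every WT library on that scale. After TMM scaling the sums overlapped, at 21374, 25322 and 15583 CPM in MUT and 18281, 19118 and 15488 CPM in WT.

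H2-K1, H2-D1, H2-Q7 and B2m each had their highest library in MUT replicate 2. Of the marker lists of 7 other cell types, that library held the highest sum for 4: 1069 CPM for thymocytes, 1804 CPM for dendritic cells and macrophages, 82.8 CPM for B cells and 1131 CPM for cortical thymic epithelium. It held the lowest sum for fibroblasts and pericytes, at 1239 CPM against up to 3063 CPM in WT library 1. Most of that sum was Rgs5, at 1096 CPM in MUT library 2 and 2955 CPM in WT library 1. Of the list's other genes, Dcn (80.7 CPM) and Pdgfra (13.8 CPM) were highest in MUT library 2, and Pdgfrb (7.52 CPM) was lowest there. In the other libraries B cell markers summed to 22.03 to 49.3 CPM and those of cortical epithelium to 541 to 879 CPM. MUT library 2 also had 384 CPM of the pan-leukocyte gene Ptprc, against 24.3 to 104 CPM in the other libraries. Other genes of the dendritic cell and macrophage list did not all follow. Adgre1 was lowest in MUT library 2, at 1.72 CPM against 8.02 to 45.9 CPM in the other libraries. Lyz2, the largest part of that sum, was at 636 CPM in MUT library 2 and 722 CPM in WT library 2. WT library 2 had the next highest sums for thymocytes (662 CPM) and for dendritic cells and macrophages (1598 CPM). It held the highest Tap2 and Tapbp values and the lowest H2-Q7, Tap1 and Nlrc5 values. Class I genes are also expressed by leukocytes, and the part these cells played in the values of either library was not tested. Without MUT library 2 the log2 fold change of H2-Q7 was 0.43, that of H2-D1 0.15, that of B2m 0.03 and that of H2-K1 0.01.

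**Figure D2:**
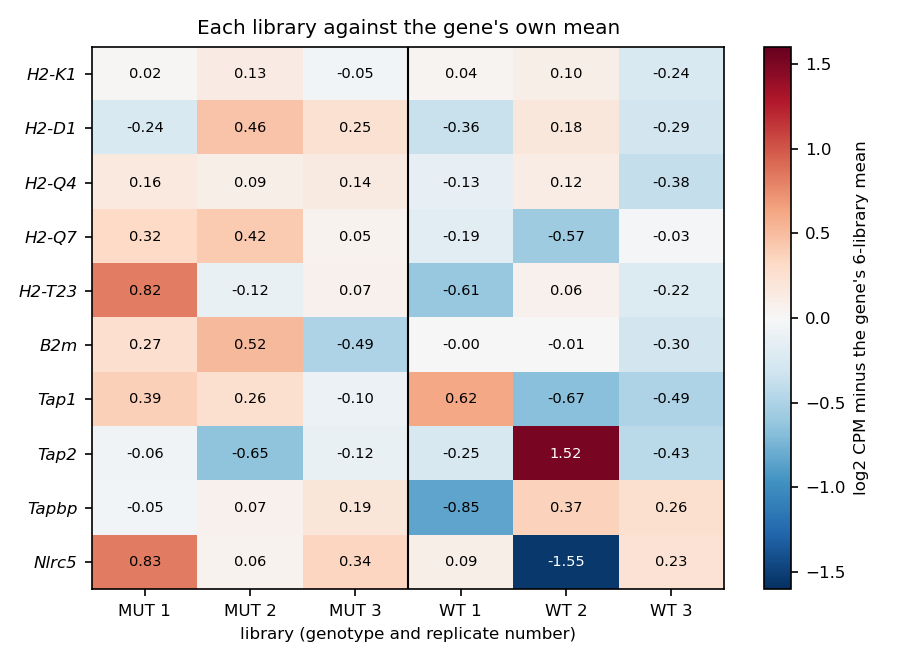
Log2 CPM of each class I gene in each library minus the gene's mean over 6 libraries, with MUT libraries left of the line and WT libraries right of it. The extremes are Tap2 at 1.52 and Nlrc5 at -1.55, both in WT replicate 2.

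The transporter genes differed from each other in their pattern over the libraries. Tap1 (ENSMUSG00000037321, chromosome 17, 34187553 to 34197225) had 238, 218 and 170.3 CPM in MUT, against 279.9, 115 and 129 CPM in WT. WT library 1 was the highest of all 6, while WT libraries 2 and 3 lay below every MUT library. The log2 fold change was 0.26 (SE 0.40, -0.62 to 1.14), and leaving out 1 library moved it between 0.02 (without WT replicate 2) and 0.77 (without WT replicate 1). Tap2 (ENSMUSG00000024339, 34203527 to 34216321) had 34.4, 22.8 and 32.9 CPM in MUT, against 30.05, 103 and 26.5 CPM in WT. It was the 1 gene of the 10 with a fitted value below 0, -0.82 (SE 0.65, -2.25 to 0.61). That sign rested on WT library 2, since the value was 0.07 without it. Per kilobase, Tap1 exceeded Tap2 by 4.78, 6.59 and 3.58 times in MUT libraries 1, 2 and 3 and by 6.43 and 3.37 times in WT libraries 1 and 3, whereas in WT library 2 the ratio was 0.773. Tap1 and Tap2 lie in 1 cluster with the immunoproteasome genes Psmb9 and Psmb8, and 495 bases separate Tap1 from Psmb8. In WT library 2, where Tap1 was at its lowest, Psmb8 measured 257 CPM and Psmb9 338 CPM, and that value of Psmb9 was the highest of the 6 libraries.

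Tapbp, which encodes tapasin (ENSMUSG00000024308, 33915899 to 33929292), had 163, 177.5 and 192 CPM in MUT, against 93.5, 218 and 202 CPM in WT. The MUT libraries lay close together, between a low WT library 1 and higher WT libraries 2 and 3. The log2 fold change was 0.06 (SE 0.39, -0.79 to 0.90), with -0.24 without WT replicate 1 and -0.01 without MUT replicate 3. Nlrc5, the class I transactivator gene (ENSMUSG00000074151, chromosome 8, 94434356 to 94527272), had 147, 86.6 and 105 CPM in MUT, against 88.8, 28.4 and 97.4 CPM in WT. MUT library 1 was the highest and WT library 2 the lowest, and the remaining 4 libraries lay between 86.6 and 105 CPM. Its log2 fold change of 0.66 (SE 0.51, -0.45 to 1.77) was the highest of the 10, with the widest interval after that of Tap2, and it was 0.27 without WT replicate 2 and 0.95 without WT replicate 3. The fold interval ran from 0.733 to 3.41. MUT library 1 also held the highest H2-T23 and H2-Q4 values, although H2-Q4 lay close to it in MUT library 3 (189 against 186 CPM). In MUT library 1, 7 of the 10 genes, Nlrc5 included, lay above their own mean log2 level over all libraries. The other 3, H2-D1 among them, lay below. In WT library 2, which held the lowest Nlrc5 value, 6 of the 10 lay above that mean and 4, Nlrc5 included, below. Whether the levels of the other genes followed that of Nlrc5 was not tested.

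**Figure D3:**
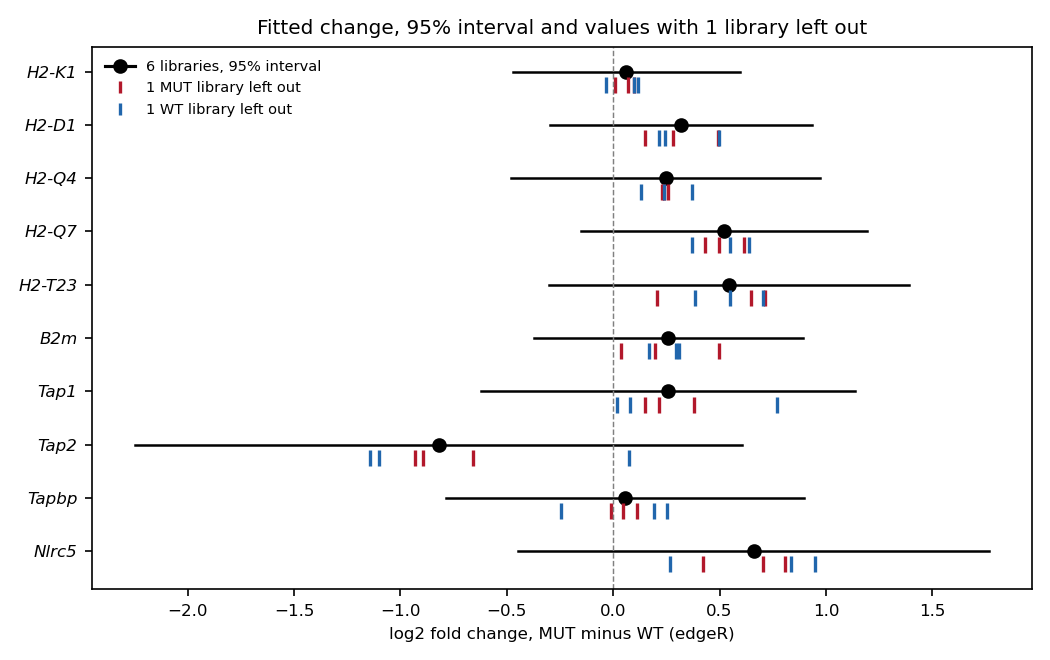
Log2 fold change of MUT minus WT for each class I gene from edgeR (black points) with its 95% interval, and the value with 1 library left out (red ticks for a MUT library, blue ticks for a WT library). Every interval includes 0, and the ticks of H2-K1, Tap2 and Tapbp lie on both sides of it.

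Libraries differed in how many of the 10 genes lay above the gene's own 6-library mean on the log2 scale. The number was 7, 8 and 6 of 10 in MUT libraries 1, 2 and 3 and 3, 6 and 2 of 10 in WT libraries 1, 2 and 3. The mean deviation was 0.25, 0.12 and 0.03 in MUT and -0.16, -0.04 and -0.19 in WT. MUT library 3 lay closest to the WT libraries. Replicate 3 had the lowest mitochondrial share in both genotypes, at 9.14% in MUT and 11.1% in WT, and WT library 3 had the lowest mean deviation of all. By this mean pattern over the 6 libraries, the 5 genes nearest to it among 7775 candidates of at least 20 CPM were Mfn1, Eef1g, Srrt, Resf1 and Pgrmc1, with root mean square differences of 0.08, 0.09, 0.09, 0.09 and 0.1 on the log2 scale. None of them passed the test, as none of all genes did, and their log2 fold changes ran between 0.10 for Eef1g and 0.40 for Srrt. The mean pattern was above 0 in each MUT library and below 0 in each WT library, so values above 0 follow from the selection.

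Per kilobase of annotated exon, the levels ran from B2m down to Tap2 in MUT and to Nlrc5 in WT. In MUT the order was B2m at 15984 CPM per kilobase, H2-K1 at 1147, H2-D1 at 927, H2-Q7 at 83.8, H2-Q4 at 71.3, H2-T23 at 62.9, Tapbp at 48.97, Tap1 at 38.1, Nlrc5 at 13.3 and Tap2 at 7.94. WT gave 13356, 1099 and 743 for B2m, H2-K1 and H2-D1, then 60.1 for H2-Q4, 58.4 for H2-Q7, 47.1 for Tapbp, 43.2 for H2-T23, 31.9 for Tap1, 14.03 for Tap2 and 8.42 for Nlrc5. B2m stood above H2-K1 in every library. H2-K1 and H2-D1 overlapped between MUT libraries (1085 to 1221 and 691 to 1121) but not between WT libraries (946 to 1197 and 637 to 925). In MUT, H2-Q7, H2-Q4, H2-T23 and Tapbp each overlapped the next in the order, while Tapbp (45.0 to 52.99) and Tap1 (31.1 to 43.5) did not. In WT each neighbour from H2-Q4 to Tap1 overlapped the next. Nlrc5 lay above Tap2 in all 3 MUT libraries, at 10.2 to 17.3 against 6.03 to 9.11, and the 2 genes overlapped in WT. H2-K1 and H2-D1 made up 88.03%, 91.8% and 91.3% of the summed level of the 5 heavy chains in MUT libraries 1, 2 and 3 and 92.1%, 92.6% and 90.9% in WT. B2m exceeded that sum by 8.32, 8.03 and 4.53 times in MUT and by 7.33, 6.20 and 6.56 times in WT. The ratio depends on the length used, and with the length of the longest transcript it was 3.29 to 5.99 in MUT and 4.46 to 5.18 in WT. The summed level leaves out other heavy chain genes. Among those, H2-M2 stood at 641 CPM per kilobase in MUT and 760 in WT, and H2-Q6 at 375 and 335. The shares and ratios therefore hold for these 5 heavy chains and not for all heavy chain RNA.

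**Figure D4:**
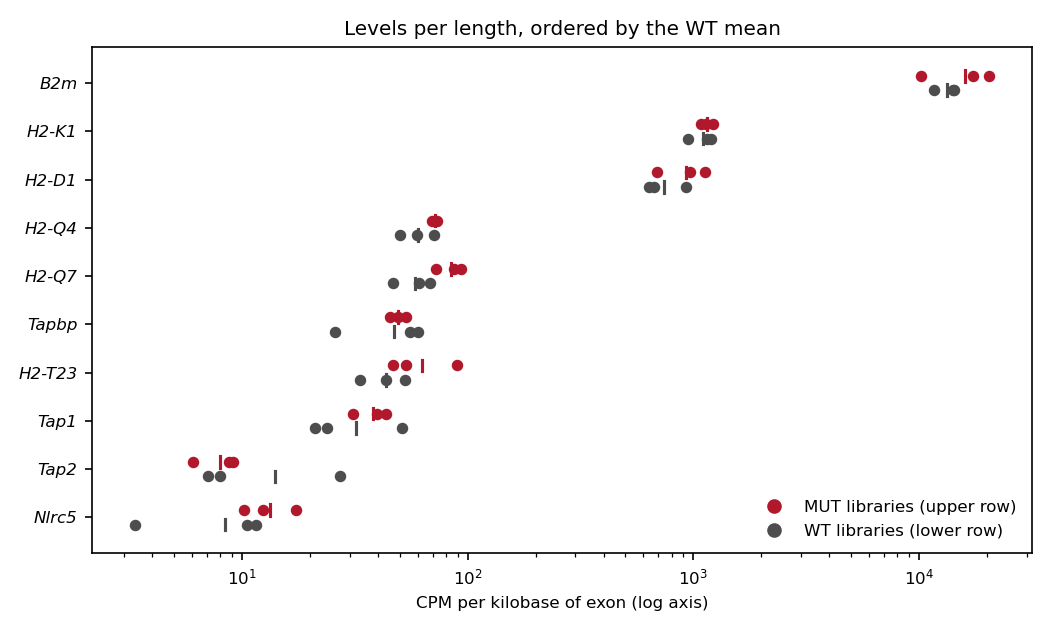
Level of each class I gene in CPM per kilobase of exon on a log axis, with the 3 MUT libraries in the upper row and the 3 WT libraries in the lower row of each gene, and ticks at the means. B2m, H2-K1 and H2-D1 lie above the other 7 genes, and Tap2 in WT replicate 2 reaches 27.1 against 6.03 to 9.11 in the other libraries.

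Reads of heavy chain genes that share sequence may have been divided by the counting. Of all 50-base windows in the annotated transcripts of each gene, 36.4% of H2-Q4, 26.5% of H2-Q7, 14.5% of H2-T23, 12.8% of H2-D1 and 9.63% of H2-K1 also occurred in transcripts of another gene. For H2-Q4 the gene sharing most was Gm11131, with 15.3% of the windows, which overlaps it on the opposite strand by 676 bases and had 790 counts, against 22445 of H2-Q4. For H2-Q7 it was the heavy chain gene H2-Q10, with 14% of the windows. B2m shared 0% and Nlrc5 0.338%. The 23.2% of Tapbp, 11.6% of Tap2 and 3.33% of Tap1 came mostly from genes that overlap them on the opposite strand (Gm19412, Gm15821 and Psmb9). The sources used here do not give the strand setting of the counting, so reads of these pairs cannot be told apart, and Gm15821, antisense to Tap2, had 3353 counts over the 6 libraries, against 5421 of Tap2. Zbtb22 overlaps Tapbp on the same strand by 3422 bases and had 1743 counts, against 23323 of Tapbp.

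Other genes of the class I pathway, grouped by role, also had 0 calls in either direction with edgeR, DESeq2 or limma-voom, and 0 at an unadjusted p under 0.05 in edgeR. Of 21 other heavy chain and class I-like genes, 19 were tested and the fit put 10 of them above 0 (median 0.05 on the log2 scale). H2-T10 and Mr1, 2 of the 19, were higher in MUT without overlap, against 5.39% of all genes. The smallest p belonged to Mr1, which presents vitamin B metabolites to MAIT cells, with 40.9, 31.04 and 15.5 CPM in MUT and 7.01, 5.60 and 13.6 CPM in WT. Its genotypes did not overlap, and its log2 fold change was 1.74 (SE 0.84, -0.09 to 3.56). H2-Q10, a gene for a secreted heavy chain, had 50.8, 25.5 and 24.3 CPM in MUT and 121, 85.5 and 18.0 CPM in WT, and H2-M10.1 23.9, 4.79 and 3.94 CPM in MUT and 0.46, 4.24 and 2.46 CPM in WT. Both overlapped between genotypes. Of 12 other loading, trimming and folding genes, 9 lay above 0, with a median of 0.20. Those with the smallest p were Bcap31, an export factor of the endoplasmic reticulum (0.85, SE 0.56), Ganab, a glucosidase subunit (0.45, SE 0.36), and Canx, the chaperone calnexin (0.39, SE 0.31). The Ganab libraries did not overlap, at 158 to 184 CPM in MUT and 93.0 to 150.4 CPM in WT, which made 1 of the 12 higher without overlap, against the same 5.39% of all genes.

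The proteasome subunit genes had a median of 0.02, with 5 of 10 above 0. Those with the smallest p were the constitutive catalytic subunit Psmb6, at 93.7 ± 5.81 CPM in MUT and 140.7 ± 10.8 CPM in WT (SD, n = 3 each; log2 fold change -0.59, SE 0.36), the immunoproteasome subunit Psmb8 (0.41, SE 0.44), and Psmb5, at 12.3 ± 1.95 and 20.1 ± 2.08 CPM (-0.72, SE 0.82). Psmb6 and Psmb5 were lower in MUT without overlap, against 3.96% of all genes. The 14 regulators of class I transcription had 6 above 0 and a median of -0.16, whose sign was not stable: it was 0.06 with limma-voom, 0.02 with the replicate block and 0.20 without WT replicate 1. Among them, the NF-kappaB subunit gene Rela measured 78.4 ± 42.2 CPM in MUT and 144 ± 65.1 CPM in WT (-0.88, SE 0.50), the interferon-induced factor gene Irf1 137 ± 36.0 and 85.1 ± 15.2 CPM (0.68, SE 0.39), and the Y-box subunit gene Nfya 61.5 ± 32.7 and 97.4 ± 42.3 CPM (-0.66, SE 0.53). Irf1 overlapped because MUT library 3, at 97.6 CPM, lay below WT library 2, at 103 CPM. Of the 14 regulators, Irf2 and Nfyc were lower in MUT without overlap, against 3.96% of all genes.

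**Figure D5:**
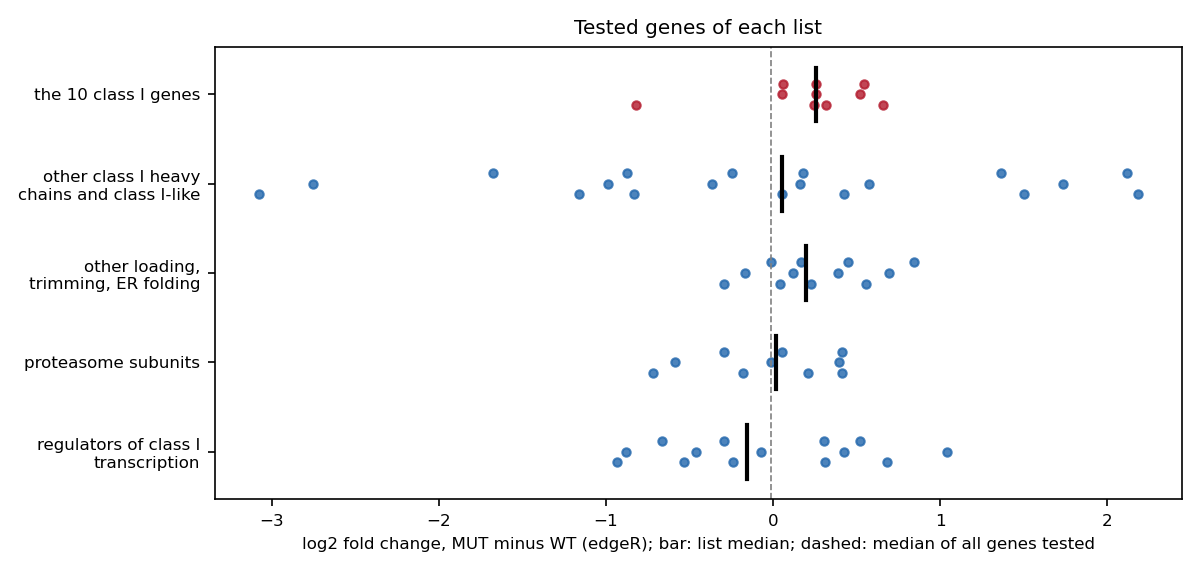
Log2 fold change of MUT minus WT (edgeR) for each tested gene of the 10 class I genes (red) and of the 4 related lists (blue), with black bars at list medians and a dashed line at the median of all genes tested. The medians lie between -0.16 and 0.26, and the other heavy chain and class I-like genes spread widest, from -3.08 to 2.18.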

How the data were processed

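Raw read counts per Ensembl gene ID were deposited by the authors, with 1 column for each of 6 libraries and no normalization. Per the labels' protocols, total RNA was converted to cDNA by the Nugen Ovation method and libraries were made with Nextera XT. The submitters' processing notes list STAR 2.4.2a, DESeq2 1.26.0 and GRCm38 without saying what each did; the sources used here do not give the counting tool, its strand setting or the read length. Groups and replicate numbers came from the sample titles. Symbols were found for 42462 of 43432 gene IDs, with coordinates and exon lengths from GENCODE M21 (GRCm38).

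The fit was edgeR 4.0.16 (R 4.3.3): filterByExpr, TMM, robust quasi-likelihood F-test on genotype, Benjamini-Hochberg over all 17172 genes tested, threshold 0.05. Intervals use the moderated degrees of freedom of that test. The interval covers the spread between libraries, and 3 libraries a group limit the precision. The fit was tested on simulated counts. Named were all 10 genes, the 3 with the smallest p in each related list, and the 5 nearest in library pattern. H2-T10, H2-M2, H2-Q6, Irf2, Nfyc, Epcam, Ptprc, Lyz2, Adgre1, Rgs5, Dcn, Pdgfra, Pdgfrb, Cd80, Cd40, Krt14, Cldn4 and Krt5 were named after their values were seen. The members and lists were chosen with earlier results of these data known. Alternatives were other scalings, filters, DESeq2 1.42.0, limma-voom 3.58.1, the replicate block, and each library left out. Same-numbered MUT and WT libraries share the ending of their source name, and the labels do not say what it marks.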

Additional observations from a re-analysis of the deposited data

How the results depend on the processing

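Of the 10 class I genes, 0 passed the threshold in each alternative run, and 0 of the genes in the 4 related lists did. The number of genes called over the whole table was 0 with TMM, DESeq2 size factors, upper-quartile factors, the stricter filter of 50 counts in 3 libraries, limma-voom, an adjusted p of 0.1 and no robust moderation, and 0 in each fit with 1 library left out. It was 73 without a filter on low counts (31 higher, 42 lower), 116 with DESeq2 (78 higher, 38 lower) and 1 with the replicate block (1 higher, 0 lower). The cause was not tested. Over the whole table, the median fitted value was -0.01 in the fit reported, 0.16 without a filter and 0.15 with DESeq2, each of which tested 28820 genes. Over all alternatives that median ran from -0.08 to 0.16, that of the 10 class I genes from 0.18 to 0.34, with 8 to 10 genes above 0, that of the loading, trimming and folding genes from 0.055 to 0.33, that of the other heavy chains from -0.17 to 0.17, that of the proteasome genes from -0.16 to 0.22 and that of the regulators from -0.31 to 0.20. Of 150 values of single class I genes under the alternatives, 146 kept their sign. The rest came from leaving out 1 library: H2-K1 ran from -0.036 to 0.12, Tap2 from -1.14 to 0.074 and Tapbp from -0.24 to 0.25.

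The replicate block gave no call among the 10 genes. It gave Tap2 -0.51, Tapbp 0.14 and the other 8 genes 0.07 to 0.81. The labels do not explain the shared source-name endings, and the deviations of same-numbered libraries correlated at 0.1, 0.059 and 0.13, although each of the 6 libraries had its best match in the other genotype at its own number. Per-length levels kept 1 order in each genotype with the length of the longest transcript, where H2-K1 was 1798 in MUT and 1722 in WT. The related lists held none of the 10 genes, so counting each gene once gave no separate value.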

Other observations

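H2-M2, a nonclassical heavy chain gene of the M region (ENSMUSG00000016283, chromosome 17, 37480851 to 37483552), overlapped H2-D1 in its level per kilobase in both genotypes; it was chosen after its values were seen. Its counts were 13795, 23546 and 33355 in the MUT libraries and 14353, 37811 and 21200 in the WT libraries. Per kilobase of exon this was 641 ± 194 CPM in MUT and 760.4 ± 337 CPM in WT, against 927 ± 218 and 743 ± 159 CPM for H2-D1 and 1147 ± 69.0 and 1099 ± 134 CPM for H2-K1 (SD, n = 3 each). In MUT all 3 libraries lay below H2-K1, at 420 to 777 CPM per kilobase. Only 1.61% of its 50-base transcript windows occurred in another gene, against 12.8% for H2-D1. Its log2 fold change was -0.25 (SE 0.36). H2-Q6 was also abundant, at 375 ± 76.2 CPM per kilobase in MUT and 335 ± 66.9 in WT, but 35.0% of its windows occurred in another gene, 13.9% in H2-Q7.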
